A study of Homo sapiens with 29 samples.

Results

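The induction of WT-FOXA1 was described from 4 ATAC-seq libraries of an engineered 22Rv1 line, 2 grown with doxycycline (Dox) and 2 without, out of 29 libraries in the study. The rule took the peak lists of the WT-FOXA1 line under DMSO, with Dox replicates 1 and 2 set against no Dox replicates 1 and 2. 22Rv1 is a human prostate cancer cell line. All 4 libraries came from cells that stably expressed Y36C-PHF5A, a mutant splicing factor subunit, and that carried WT-FOXA1 under a Dox-inducible system. All 4 were exposed to 0.1% DMSO for 3 h, so the label that separates the groups is Dox alone. The endogenous FOXA1 gene was not stated to be removed. The length of the Dox exposure, its dose and the clonality of the line are not stated in the labels. None of the 29 libraries was from engineered cells without a FOXA1 transgene or from the C258A-FOXA1 line without Dox, so induced FOXA1 and the drug Dox itself cannot be told apart. The other 25 libraries served only to look up the same regions. They were 15 of parental 22Rv1, 6 of a line with Dox-inducible C258A-FOXA1 and Y36C-PHF5A, and 4 of the WT-FOXA1 line under Dox plus a compound. Nothing in the labels said whether replicates came from separate cultures, so the spread between them may be technical.

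FOXA1 is a forkhead transcription factor that marks luminal prostate cells. It is called a pioneer factor because it can bind its DNA motif on nucleosomes and open closed chromatin, mostly at distal enhancers, where the androgen receptor and other factors then bind. ATAC-seq inserts sequencing adapters into accessible DNA with a transposase, and a peak marks a stretch with more insertions than the surroundings. A site can therefore change in an ATAC-seq list by gaining a peak, losing one, or keeping a peak of another height.

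Each library had its own list of peaks, called separately. The peaks of the 4 lists on chromosomes 1 to 22, X and Y were merged where they overlapped or touched, which gave 104233 regions. A region was gained when both Dox libraries and neither no Dox library held a peak in it, lost in the reverse case, and stable when all 4 held one. The remainder, held by other combinations of libraries, were called discordant. The absence of a peak means only that the signal was below the limit of that list.

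The lists with Dox were longer. Dox replicate 1 held 88140 peaks and Dox replicate 2 held 85009, while no Dox replicate 1 held 69814 and no Dox replicate 2 held 67195. Both Dox lists were longer than both no Dox lists, and the groups did not overlap. The mean was 86575 ± 2214 peaks with Dox and 68505 ± 1852 without (SD, n = 2 each), a difference of 18070 peaks (SE 2041) or 1.26-fold. The peaks covered 32.1 and 30.6 Mb of the genome with Dox and 26.1 and 24.9 Mb without, a difference of 5.88 Mb (SE 0.95). The median peak was 299 and 297 bp wide with Dox and 303 and 302 bp without, a difference of -4.5 bp. The sign of this width difference turned with lists of equal length (31.5 bp) and with a fold of at least 6 (4.5 bp). Depth moved with these differences. The peak caller's genome background, a relative measure of depth recovered from the deposited columns, was 0.869 and 0.844 reads per base with Dox and 0.809 and 0.723 without. Its group means had a ratio of 1.12. For each of these 4 measures the exact two-sided permutation p was 0.333, which is the smallest that 2 against 2 libraries allow, and it was 0.333 after Benjamini-Hochberg adjustment over the 4 measures.

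**Figure D1:**
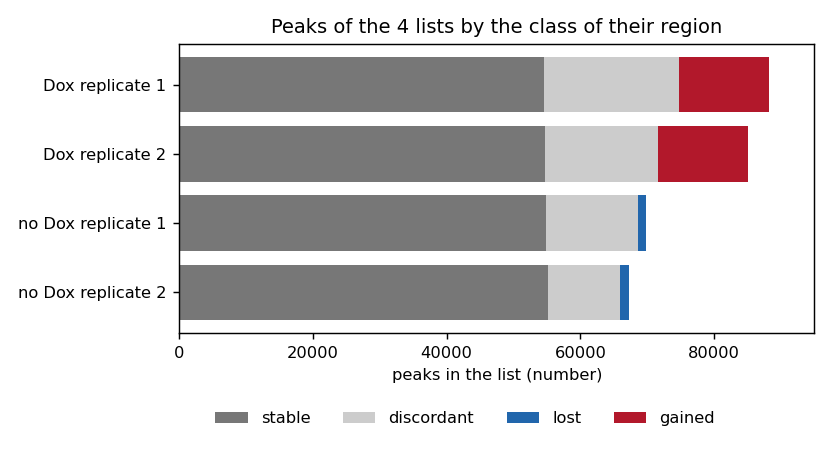
Number of peaks in each of the 4 lists, divided by the class of the region that the peak lies in (stable, discordant, lost or gained). Peaks in stable regions number 54538 to 55109, near each other because every list holds each stable region by definition. The gained segment of 13440 and 13429 peaks also appears in the Dox lists by definition.

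The surplus of the Dox lists lay outside the stable regions. That is nearly fixed by definition, since every list holds a peak in each stable region. Peaks in stable regions numbered 54538 and 54731 in the Dox lists and 54913 and 55109 in the no Dox lists. Gained regions took 13440 and 13429 peaks of the Dox lists, or 15.2% and 15.8% of them. Lost regions took 1229 and 1228 peaks of the no Dox lists, or 1.76% and 1.83%. Peaks in discordant regions numbered 20162 and 16849 with Dox and 13672 and 10858 without.

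Of the 104233 regions, 13339 were gained (12.8% of all regions) and 1227 were lost (1.18%). Stable regions numbered 52228 and discordant ones 37439. Gained and lost regions are a description of these 4 lists with no test, since a region needs a peak in both lists of a group by definition. Regions held by 1 library alone numbered 16507 among the Dox lists and 6399 among the no Dox lists. A further 5860 regions were held by both Dox libraries and 1 no Dox library, and 3518 by both no Dox libraries and 1 Dox library. In each of these pairs of mirrored patterns the larger count was on the Dox side in the lists as deposited, which are longer with Dox. When only 1 library had to hold the peak in a group, the counts rose: without Dox replicate 1 there were 21077 gained and 3354 lost regions, and without Dox replicate 2 there were 22668 and 2725. Lost regions numbered 4002 without no Dox replicate 1 and 5012 without no Dox replicate 2, and gained regions outnumbered them in each case.

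Within a replicate number the same imbalance was present in the lists as deposited. Dox replicate 1 held 26176 regions that no Dox replicate 1 lacked, and the reverse held for 7595. The corresponding counts for the second pair were 25397 and 7304.

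To remove list length, each list was reduced to its 67195 peaks of lowest p-value, the length of the shortest list. This kept peaks with a −log10 p of at least 8.91 and 8.74 in the Dox lists and of at least 6.70 in no Dox replicate 1. No Dox replicate 2 stayed whole, with a lowest −log10 p of 4.11. At equal length 6936 of 88938 regions were gained (7.8%) and 3686 were lost (4.14%), with 46350 stable. More regions were still gained than lost, by a smaller margin. The other mirrored patterns turned to the no Dox side. Regions held by 1 library alone then numbered 8956 among the Dox lists and 10102 among the no Dox lists. Those held by both Dox libraries and 1 no Dox library numbered 2616, against 5963 for both no Dox libraries and 1 Dox library. Equal lists remove weak peaks only from the longer lists, so the gained count falls and the lost count grows by construction.

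The gained regions at equal length were nearly all gained in the full lists as well. Of the 6936, 6839 (98.6%) had been gained as deposited, and 96 had been held by both Dox libraries and 1 no Dox library. The lost regions at equal length had another origin. Of the 3686, 1071 (29.1%) had been lost as deposited, 1529 had been held by both no Dox libraries and 1 Dox library, and 1086 had been stable. Counted from the full lists, the share that remained in its class was 51.3% for gained and 87.3% for lost regions.

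Depth was also looked at in another way. MACS2 reports a fold and a p-value for each summit, and together these return the whole number of reads at the summit and the local background. The lowest summit called held 6 reads in each of the 4 libraries. In 12818 gained regions (96.1% of the 13339) the reads at both Dox summits, scaled down to the background level of both no Dox libraries, still passed the lowest p-value called there. This limit is lenient for regions chosen by their peaks in both Dox lists. Their median −log10 p was 10.5 and 10.9 there, while the lowest called was 4.10 and 4.11 in the no Dox lists. A high share was therefore likely from the start, and the check cannot show that depth was removed. The same check says nothing of lost regions, whose reads are scaled up to the deeper lists and pass by construction. With a common limit on depth-scaled summit height in all 4 lists, 12863 regions were gained and 1296 lost. This second check is lenient too. The lowest summit called stood highest in no Dox replicate 2, at 8.30 times the background. The median summit at gained regions stood at 14.96 and 15.39 times the background in the Dox lists. A count near 13339 was therefore likely from the start, and it does not show that depth was removed.

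Gained regions were narrower than stable ones and wider than lost ones. Their median width was 314 bp (quartiles 255 and 393 bp), against 241 bp (207 and 282 bp) for lost, 445 bp (334 and 652 bp) for stable and 209 bp (162 and 265 bp) for discordant regions. The narrowest peak in any list was 150 bp. A width of 500 bp or more was reached by 8.85% of gained, 0.407% of lost and 41.9% of stable regions. Together the gained regions spanned 4.48 Mb and the lost regions 0.308 Mb. At equal length the medians were 363 bp for gained, 255 bp for lost and 474 bp for stable regions. A merged region is at least as wide as the widest peak in it, so classes held by 4 lists are drawn wider than those held by 2. The median of single peaks inside gained regions was 264 ± 2.1 bp in the Dox lists, and that inside lost regions was 188 ± 3.5 bp in the no Dox lists (SD, n = 2 each). Single peaks inside stable regions had a median of 362 ± 8.5 bp with Dox and 346.5 ± 6.4 bp without (SD, n = 2 each).

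Strength was read from the rank of the authors' p-value within a list, with each list divided into 3 classes of equal size called weak, middle and strong. The gained regions were mainly weak or middle. In the Dox lists 49.7% ± 0.65 of them were weak, 41.6% ± 0.09 middle and 8.74% ± 0.56 strong (SD, n = 2). The lost regions were weaker. In the no Dox lists 88.6% ± 0.35 of them were weak, 11.4% ± 0.35 middle and 0% strong (SD, n = 2). Stable regions were strong in 52.0% ± 1.6 in the Dox lists and in 43.2% ± 1.2 in the no Dox lists (SD, n = 2 each). That order turned at equal length, with 46.6% ± 0.26 strong in the Dox lists and 47.8% ± 0.06 in the no Dox lists (SD, n = 2 each). The median rank of a gained region was the 33.6th percentile of a Dox list, against the 14.8th percentile of a no Dox list for a lost region. At equal length 48.7% of gained regions were weak, 44.0% middle and 7.28% strong. The lost regions were then 82.5% weak and 17.4% middle, with 0.027% strong.

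**Figure D2:**
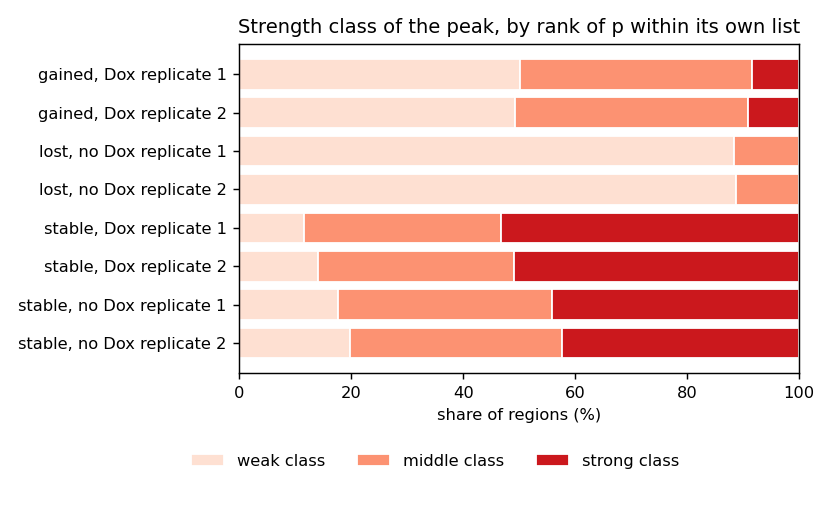
Share of gained, lost and stable regions (%) whose peak lies in the weak, middle or strong class of its own list by the authors' p-value, for each library that holds the class. Gained regions are 49.7% weak on average and lost regions 88.6%, while 43.2% to 52.0% of stable regions are strong on average.

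In reads, the gained sites were modest peaks. The median summit in a gained region held 13 reads in each Dox library, and the highest held 57 and 69 reads. The median summit in a lost region held 11 reads in each no Dox library. Stable regions had a median of 28 and 27 reads with Dox and 27 and 25 reads without. The authors' fold over the local background had a median of 6.42 and 6.51 at gained regions in the Dox lists and of 5.47 and 5.52 at lost regions in the no Dox lists. These values belong to lists of different depth and are given to describe peaks within each list.

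Gained regions lay far from stable ones. The median distance from edge to edge to the nearest stable region was 25908 bp (quartiles 9840.5 and 62838 bp). It was 10162 bp (2042 and 27924 bp) for lost regions and 15651 bp for discordant regions. Stable regions themselves had their next stable neighbour at a median of 10662 bp. Gained regions were thus farther out than lost ones. Both distances grew when only peaks with a fold of at least 6 were kept in every list. The median was then 23388 bp for lost and 35032 bp for gained regions. This filter also redefines the stable regions from which distance is measured. Within 1 kb of a stable region lay 5.44% of gained, 18.1% of lost and 16.5% of stable regions. Within 10 kb lay 25.3% of gained, 49.9% of lost and 48.2% of stable regions. Beyond 100 kb lay 1976 gained and 64 lost regions, and beyond 500 kb lay 58 gained regions and no lost one. At equal length the median was 31729 bp for gained, 13392 bp for lost and 12028 bp for stable regions.

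**Figure D3:**
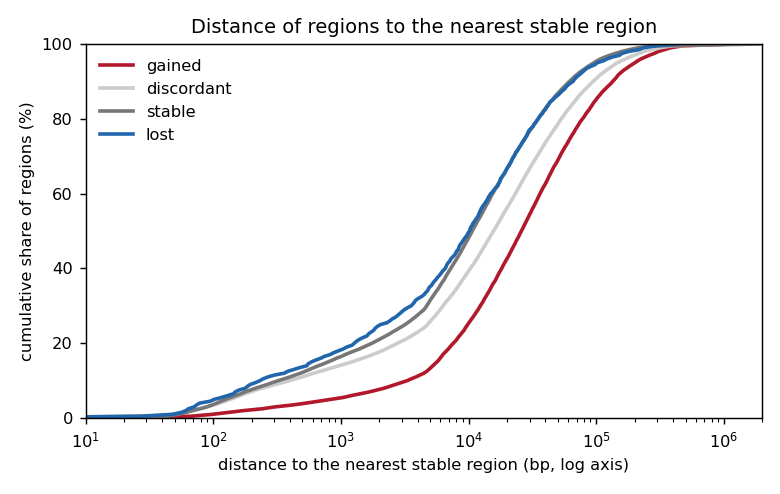
Cumulative share (%) of gained, discordant, stable and lost regions against the distance in bp to the nearest stable region, on a log axis. The curve for gained regions lies to the right of the others, with a median of 25908 bp against 10162 bp for lost and 10662 bp for stable regions.

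Distance also differed within the gained class. Regions that were weak in both Dox lists had a median distance of 22041 bp (n = 4725), those that were middle in both 29363 bp (n = 3251), and those that were strong in both 31810 bp (n = 714). The share within 1 kb of a stable region fell in the same order, from 8.30% through 3.11% to 1.40%. Regions held by 1 Dox library alone, which showed no agreement between replicates, lay at 20038 bp, and those held by 1 no Dox library alone at 11736 bp. The stronger gained peaks were therefore the more distant ones, while among stable regions the median was 9871 bp for weak and 10301 bp for strong ones.

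Some gained regions were neighbours of one another, though no reference spacing was set beside these values. The median distance from a gained region to the next gained one was 53747 bp, and 16.7% had one within 10 kb. They lay in 8600 of the intervals between successive stable regions, or outside the outermost stable region of a chromosome. Of these intervals 5990 held 1 gained region and 2610 held more, and the latter contained 55.1% of all gained regions. In 25 intervals there were at least 10, with 18 at most. The 1227 lost regions lay in 1186 intervals with at most 4 in 1 interval, and the median distance from a lost region to the next lost one was 654754 bp. A class of fewer members is also spread more thinly, so these spacings are not comparable between the classes.

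Counted in windows of 1 Mb, gained regions did not follow the density of stable regions. Windows with 0 to 4 stable regions held 3.97 ± 3.7 gained regions (SD over 350 windows), those with 5 to 19 held 4.92 ± 3.6 (1557 windows) and those with 20 or more held 4.30 ± 2.5 (998 windows). The corresponding numbers of lost regions were 0.197 ± 0.48, 0.327 ± 0.61 and 0.650 ± 0.83. The densest windows thus held 64.1% of stable, 52.9% of lost and 32.1% of gained regions. The sparsest windows held 1.72% of stable, 5.62% of lost and 10.4% of gained regions.

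Gained regions were also unevenly spread over chromosomes. The share of a chromosome's regions that were gained was highest on chromosome 13 (18.6%), chromosome 4 (18.0%) and chromosome 18 (16.7%). It was lowest on chromosome 19 (4.39%), chromosome 22 (6.71%), chromosome 17 (7.34%) and chromosome 16 (8.0%). At equal length the share was 12.4% on chromosome 13, 12.1% on chromosome 4 and 1.97% on chromosome 19, so the order of these 3 stayed. Lost regions made up 0.69% to 1.92% of the regions of a chromosome. Over the 24 chromosomes the share gained had a Spearman rho of -0.485 with the number of regions per Mb, and the share lost had -0.354. At equal length these were -0.481 and -0.504, so the trend was not particular to gained regions. These are descriptions across chromosomes that share the same 4 libraries, and the copy number of this line was not analysed here.

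**Figure D4:**
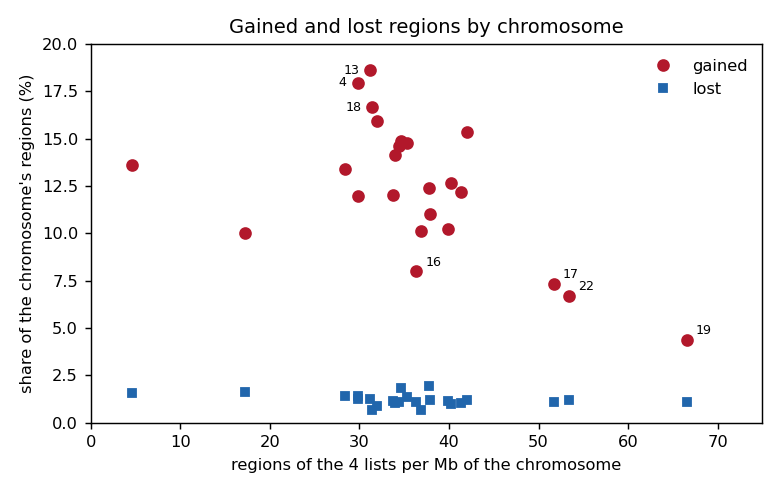
Share (%) of each chromosome's regions that were gained (circles, some labelled by chromosome) or lost (squares), against the regions of the 4 lists per Mb of that chromosome. The share gained spans 4.39% on chromosome 19 to 18.6% on chromosome 13, while the share lost stays between 0.69% and 1.92%.

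Among the 1 Mb windows, the 3 with the most gained regions at equal length were on chromosomes 1, 7 and 13. The window from 188000001 to 189000000 on chromosome 1 held 17 gained regions among 38, with 6 stable ones. The window from 13000001 to 14000000 on chromosome 7 held 16 of 41, with 8 stable. The window from 94000001 to 95000000 on chromosome 13 held 14 of 40, with 16 stable. As deposited these windows held 23, 20 and 19 gained regions. The windows with the most lost regions at equal length held 9 of 69 (chromosome 19, from 54000001), 9 of 102 (chromosome 22, from 50000001) and 8 of 36 (chromosome 10, from 63000001). As deposited they held 2, 1 and 4 lost regions, fewer than with the shortened lists. All positions are of build hg19, and the genes and motifs at them were not analysed here.

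Single regions were named by a fixed rule, the 5 gained and 5 lost regions of best mean rank in the 2 lists that hold them, among those in the same class as deposited and at equal length. The first gained region, chr1:99371471-99372059, was 589 bp wide. Its fold was 16.8 and 17.5, from summits of 56 and 63 reads in the Dox libraries, with no peak in either no Dox library. The nearest stable region was 111287 bp away. The second, chr9:18085316-18085933, had a fold of 15.7 and 18.3 with 49 and 69 reads and lay 31432 bp from a stable region. Both summits of each of these regions ranked at the 89.7th percentile of their list or higher. The third, chr22:28442260-28442979, had a fold of 14.8 and 14.6 with 57 and 56 reads, 4806 bp from a stable region. The fourth, chr7:28736203-28736766, had 15.8 in both libraries with 48 and 53 reads, 10316 bp from a stable region.

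These 4 regions showed the same presence in the rest of the study. All 10 other libraries of the engineered lines, each of which had Dox, held a peak in each of them, and none of the 15 parental libraries did. The fifth region, chr1:227455887-227456626, had a fold of 13.1 and 14.3 with 57 and 54 reads. It lay 43 bp from a stable region, and it was held by all 10 other engineered and by 9 of the 15 parental libraries.

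The named lost regions were lower and narrower. The first, chr9:125924556-125924993, had a fold of 9.40 and 10.2 from summits of 16 and 19 reads in the no Dox libraries. The second, chr9:92221494-92221693, had a fold of 4.76 and 4.17 but 53 and 41 reads, over a high local background and 110 bp from a stable region. The third, chr8:74390541-74390795, had a fold of 9.55 in both libraries with 17 and 16 reads. All 5 named lost regions were 200 to 438 bp wide, whereas the 5 named gained regions were 564 to 740 bp wide. The fourth was chr4:85452135-85452406, with a fold of 11.6 and 8.12 from 20 and 13 reads. The fifth was chr1:186121822-186122149, with 9.05 and 17 reads in both libraries. All 3 parental DMSO libraries held each of the 5 lost regions, and all 15 parental libraries held 4 of them, the exception being the chromosome 8 region with 11 of 15. Libraries with Dox held them too. Both C258A-FOXA1 DMSO libraries held 4 of the 5, and 1 of the 2 held the fifth. In the WT-FOXA1 line given Dox, both PladB libraries held all 5, so their absence from the 2 Dox DMSO libraries did not extend to every library of this line with Dox.

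The 25 other libraries did not enter the choice of regions. In the C258A-FOXA1 line with Dox and DMSO, 72.4% ± 1.7 of the gained regions held a peak (SD, n = 2). In parental DMSO libraries 24.3% ± 1.6 did (SD, n = 3). The lost regions had the opposite order, with 41.0% ± 1.9 in the C258A-FOXA1 line and 72.0% ± 1.9 in parental cells. Over all 104233 regions the shares were 72.7% ± 1.3 and 72.2% ± 1.4, so the 2 groups of libraries held like shares of the whole set. Stable regions held a peak in 96.1% and 97.5%. The mean list length was 85716 peaks in the C258A-FOXA1 DMSO group and 94298 in the parental DMSO group. The parental lists came from another processing folder than the engineered ones, so line, transgene, Dox and batch cannot be told apart in this contrast, and it was not tested.

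**Figure D5:**
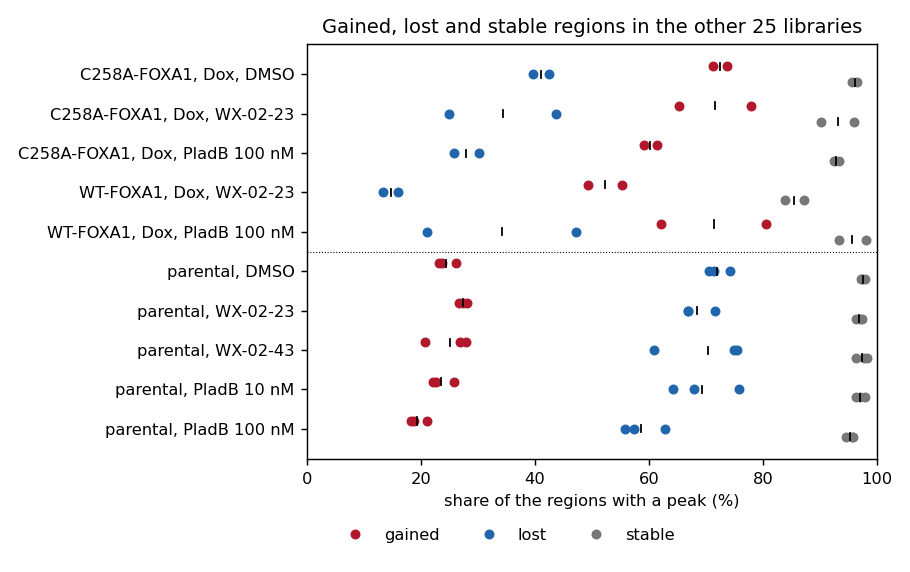
Share (%) of the gained, lost and stable regions with a peak in each of the other 25 libraries, by group; points are libraries and ticks are group means. Gained regions are held more often in every engineered library (49.3% to 80.6%, above the dotted line) than in every parental one, with a parental DMSO mean of 24.3%, and lost regions less often.

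The higher share in engineered than in parental cells was present in every treatment group. Gained regions held a peak in 71.6% ± 8.9 of cases with WX-02-23 and 60.2% ± 1.6 with PladB (pladienolide B, a splicing inhibitor, at 100 nM) in the C258A-FOXA1 line. In the WT-FOXA1 line with Dox the shares were 52.3% ± 4.2 with WX-02-23, a covalent FOXA1 ligand given at 20 µM, and 71.4% ± 13 with PladB (SD, n = 2 each). Over all regions the corresponding shares were 70.0% and 65.4% in the C258A-FOXA1 line and 56.5% and 70.2% in the WT-FOXA1 line. On average the gained share was slightly above that of all regions in C258A-FOXA1 with WX-02-23 and in WT-FOXA1 with PladB. In the others it was below. The libraries of WT-FOXA1 with PladB differed in direction. Replicate 1 had 62.2% of gained against 63.7% of all regions, and replicate 2 had 80.6% against 76.7%. Their lists held 71121 and 88735 peaks. The WT-FOXA1 libraries with Dox and DMSO hold all gained regions by definition, so a change by treatment cannot be read in that line. No effect of treatment was tested. The WX-02-23 group of the WT-FOXA1 line also had the shortest lists, 65324 peaks on average. In the 5 parental groups the mean share was 19.3% to 27.3% (n = 3 each), against 67.0% to 72.3% over all regions. For lost regions the WT-FOXA1 line with WX-02-23 held 14.6% ± 1.8 (SD, n = 2), the lowest of all groups.

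Agreement between replicates and peak strength separated the gained regions further. Those strong in both Dox lists held a peak in 99.3% ± 0.40 of cases in the C258A-FOXA1 DMSO libraries (SD, n = 2) and in 18.7% ± 1.1 in the parental DMSO libraries (SD, n = 3). Those middle in both held one in 87.2% ± 1.9 and 19.2% ± 1.1, and those weak in both in 54.4% ± 1.6 and 30.2% ± 2.0. Regions held by 1 Dox library alone held one in 31.7% and 31.2%, which are close to each other. Gained regions that were gained at equal length too held one in 85.7% and 19.5%. The C258A-FOXA1 line with Dox thus held stronger gained peaks more often. Other regions were not divided by strength in this look-up, and stable regions stood at 96.1% there. Whether the order is particular to gained regions was therefore not tested. In parental DMSO libraries the weak ones were held more often than the others. Middle and strong ones were close, with middle slightly higher within each library (18.4% against 17.9%, 20.5% against 19.9% and 18.8% against 18.2%).

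Counted region by region, 8495 gained regions (63.7%) had a peak in both C258A-FOXA1 DMSO libraries and 2509 in neither. This was below the 93.8% of stable regions with a peak in both. The mean share with a peak in these libraries was 72.4% for gained and 72.7% for all regions, so gained regions were not held more often than the whole set. Among lost regions 298 (24.3%) had a peak in both and 518 (42.2%) in neither. Parental cells lacked most of the gained regions: 8012 (60.1%) had a peak in none of the 15 parental libraries, while 1076 (8.07%) had one in all 15. Over all regions these shares were 16.0% and 52.7%. Of the lost regions 61 (4.97%) were absent from all parental libraries and 334 (27.2%) were present in all, so both shares were below those over all regions. A total of 2453 gained regions (18.4%) were held by all 10 other engineered libraries and by no parental one, a pattern shown by 2.59% of all regions and 0.33% of stable ones. Among gained regions strong in both Dox lists it was 471 of 714 (66.0%). No lost region showed it. A peak in none of the 25 other libraries was found for 244 gained (1.83%) and 20 lost regions (1.63%), against 2.80% of all regions.

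At stable regions, where all 4 libraries have a peak, the height of the summits could be compared. The summit reads were divided by the background level of the library. The median summit stood at 32.2 and 32.0 times the background with Dox and at 33.4 and 34.6 times without, so both Dox libraries were lower. This comparison was added after seeing the data and was not tested. The median log2 ratio of Dox to no Dox over stable regions was -0.11, with 5% of regions below -0.49 and 5% above 0.36. Both Dox libraries exceeded both no Dox libraries in 5588 stable regions (10.7%) and lay below both in 18599 (35.6%). When each library was divided instead by its own median over stable regions, these counts became 8699 (16.7%) and 12044 (23.1%), so this balance depends on the scaling. In both scalings few stable regions differed by 2-fold or more without overlap. They numbered 205 higher and 33 lower with Dox by background, and 276 higher and 15 lower by the library's own median. These few larger shifts, mostly at low summits, were more often toward higher summits with Dox, although the balance of all shifts was toward lower ones. Regions that fell below the limit of any list are not stable, so large shifts at low summits are only partly seen here.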

How the data were processed

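ATAC-seq peak lists of 4 libraries were used, and the lists of 25 others were used for look-up. The submitters' processing notes name Bowtie2, MACS2 and build hg19. Which versions and options were used, and whether duplicates were removed or reads shifted for the transposase, is not given in the sources used here. Per the file format, the authors deposited for each peak the p-value and the q-value as −log10, a score, the summit offset and a ratio, the fold over local background. The lowest −log10 q in the deposited lists lay just above the value for a q-value of 0.01. Read totals were not given.

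The deposited fold is (reads + 1)/(background + 1) and the deposited p-value is a Poisson tail, so the summit reads and local background were solved for each peak. The p-values were recovered within 0.000187 in −log10 p. All local backgrounds above the genome level lay on steps of 0.015 reads per base (tolerance 0.02 of a step). The lowest is the background used as relative depth. It depends on the authors' read extension.

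Presence in a library meant an overlap of at least 1 bp with one of its peaks. In each list 2 mitochondrial peaks were left out. The 4 list measures were tested by exact permutation, two-sided. The members, lists and tests were chosen with earlier results of these data known. Named regions and windows followed the rules given in the report. Spacing of gained regions, windows by stable density, summit levels at stable regions and region counts over the other libraries were added after seeing the data. Promoter shares, motifs and gene names were not analysed here, since no annotation of hg19 was used here. Region counting was tested on simulated data, and merging was set against bedtools 2.31.1. The scripts ran in Python 3.11.15 with scipy 1.17.1, pandas 2.3.3 and numpy 2.4.6, and matplotlib 3.10.9 drew the plots. Alternatives are given in the closing section.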

Additional observations from a re-analysis of the deposited data

How the results depend on the processing

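Each value was recomputed under the alternatives below, 129 values over 14 results. Of these 57 stayed within their tolerance, 70 moved further and 2 changed sign. The tolerance was 1.5 times for counts and the SD over the libraries for widths and weak shares. For distances it was the 95% interval of the median over regions. List differences were judged by sign alone, and they gave 27 of the 57. The values with the replicate number as a block equal the main ones by construction and are among the 57. The scaling at stable regions and its leave-one-out counts were chosen after seeing the data. Gained regions outnumbered lost ones in 14 of 14 settings, lay farther from stable regions in 12 of 12 and were less often weak in 12 of 12. Each of these totals, and that for width, includes the main analysis itself. The total for counts also includes the replicate block, which repeats the main counts. Gained regions were compared with lost ones in width as well. They were wider in 9 of 11 settings. The exceptions were without Dox replicate 1 (220 against 250 bp) and without Dox replicate 2 (217 against 247 bp), where 1 Dox list defines them.

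With lists of equal length the difference in median peak width became 31.5 bp. There were then 6936 gained and 3686 lost regions, with median widths of 363 and 255 bp, weak shares of 48.7% and 82.5%, and distances of 31729 and 13392 bp. With a fold of at least 6 the width difference was 4.5 bp and 7349 regions were gained. Gained and lost regions were then 365 and 281 bp wide, 56.5% and 82.8% weak, and 35032 and 23388 bp from stable regions. A q-value of 1e-05 or below gave 326 and 250 bp, 51.4% and 87.9% weak, and 28349 and 11591 bp. With 50% of a region covered the values were 318 and 252 bp, 46.9% and 82.6%, and 28336 and 12465 bp. Regions from all 29 lists were 421 and 369 bp wide, with lost regions at 11784 bp. Summit windows put 73.2% of lost regions in the weak class and placed them at 7352.5 bp. Merging peaks up to 150 bp apart gave gained regions of 319 bp. Classes by fold gave 40.7% and 79.5% weak, and 2 classes in place of 3 gave 74.1% and 98.7%. Division by the library's own median gave 8699 higher and 12044 lower stable regions.

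Leaving out 1 library leaves 1 list in a group, so that fewer lists must agree. Gained regions then numbered 15822 to 22668, most without a Dox library, and lost regions 2725 to 5012, stable regions higher with Dox 9630 to 13507 and lower 24237 to 30255. Median widths were 217 to 303 bp for gained and 171 to 250 bp for lost regions, weak shares 51.3% to 66.4% and 81.9% to 93.4%, and the distance of gained regions 21549 to 22963 bp.

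The replicate numbers gave no sign of pairing. At stable regions the deviations of same-numbered libraries had a correlation of 0.0045. With the replicate number as a block the difference is again 18070 peaks, by construction. The exact two-sided permutation p over both pairs was 0.5, the smallest that they allow. The block leaves gained and lost regions as they are. Regions with fewer than 6 reads at the summit were not detectable in these libraries.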
